A study of Homo sapiens with 48 samples.

Results

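The early cytokine response of control fibroblasts was read from 6 RNA-seq libraries, 3 made after 6 h of dual stimulation by TGFβ and IL-1β at 10 ng/ml apiece and 3 made at 0 h, out of 48 libraries in the series. The members were chosen by the sample labels alone, as the control cells of the CRISPR knockout (CRISPRko) arm at those times. These cells descend from CRL-4001, an immortalized line of human skin fibroblasts, and carry an mNeonGreen reporter at the IL11 gene (IL11mNG) together with Cas9. The reporter cells were sorted as single-cell clones, infected with a lentiviral non-targeting guide and kept as a selected bulk population. All 6 libraries therefore share the reporter, Cas9, the guide and the drug selection, and the cell line label reads "KO for GLIS3" for controls too, although genotype is WT and condition is Control for KO. Fresh medium with or without cytokines was added in a reverse time course, and all cells were collected together. The methods do not say when the 0 h cells received theirs, and no 6 h library was without cytokines. Any effect of the medium change therefore cannot be told apart from that of the cytokines. The methods say in general that cell culture experiments had independent biological replicates, but the sample labels do not say how these libraries were separated, so p-values measure the spread between them, which may in part be technical.

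TGFβ binds a pair of serine/threonine kinase receptors that phosphorylate SMAD2 and SMAD3, which enter the nucleus with SMAD4 and switch on matrix genes together with their own inhibitors. IL-1β binds IL1R1 and IL1RAP and, through MYD88, IRAK kinases and TRAF6, activates the transcription factor NF-κB and the MAP kinases that act on AP-1. NF-κB then raises chemokine and cytokine genes and, among its first targets, the inhibitors that switch it off again.

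Library totals ran from 3377399 to 6750532 estimated counts, and levels are given as CPM (counts scaled to a common library size with TMM factors) unless TPM, which also corrects for length, is named. Genes carry the symbols of the files, some of them older, so IL8 is CXCL8, CTGF is CCN2, CYR61 is CCN1, KIAA1199 is CEMIP and DDX58 is RIGI. The 6 h replicate 1 library stood apart from its group. It had a TMM factor of 1.34, against 0.888 and 0.875 in the other 6 h libraries, and its 50 most abundant genes took 33.8% of counts, against 40.9% and 42%. Its counts differed from those of replicates 2 and 3 in a chi-square test by 29.3 and 23.2 for each degree of freedom, whereas the value was 8.11 between replicates 2 and 3 and 6.7 to 7.84 among the 0 h libraries. Each pair differed by more than sampling noise, so each library counted once. Fibroblast markers summed to between 48300 and 56400 CPM at 0 h and to between 31900 and 59500 at 6 h, and 0 of 15 markers were without counts. Epithelial markers stood at 9.18 to 14 and 7.85 to 11.1 CPM (EPCAM, KRT5, KRT19 and TP63 at 0), leukocyte markers at 17.4 to 22.2 and 23.7 to 26.3 (LYZ, CD3E, CD79A and TYROBP at 0), and endothelial markers at 0.161 to 1.08 and 0.245 to 1.29 (CDH5, KDR, CLDN5 and ERG at 0). Melanocyte and neural markers stood at 0.161 to 0.81 and 0.245 to 0.796 CPM (TYR, DCT and SOX10 at 0). Smooth muscle and pericyte markers stood at 115 to 174 and 197 to 401 CPM (DES and MCAM at 0), with 1 of 4 tested, SMTN, called (1.38), and their part in the results was not tested. In bulk RNA, fewer cells of a kind and less RNA per cell cannot be told apart.

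After 6 h with both cytokines, chemokine, cytokine and NF-κB feedback genes were higher, and ID genes, DKK1 and CITED2 lower. Of 10962 genes tested, 1130 were higher (10.3%) and 614 lower (5.6%) at an adjusted p under 0.05 in edgeR's quasi-likelihood test. The libraries of the 2 times did not overlap, with 6 h above, for 1800 genes (16.4%), and, with 6 h below, for 1651 genes (15.1%). Among the genes called, 1101 of the higher and 584 of the lower ones did not overlap. Of the genes called, 251 genes rose at least 4-fold and 34 at least 64-fold, whereas 77 and 3 genes fell by these factors. Of the higher genes 18 had no count at 0 h, and of the lower genes 4 had none at 6 h, so their fitted folds depend on the prior count. Genes with few counts at 0 h could pass the filter on low counts only through other libraries, and had little room to fall. Counts of rises in lists that hold such genes are partly set by the filter. The median log2 fold change over all genes tested was -0.0316. Without the 6 h replicate 1 library, 1029 genes were higher and 484 lower.

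**Figure D1:**
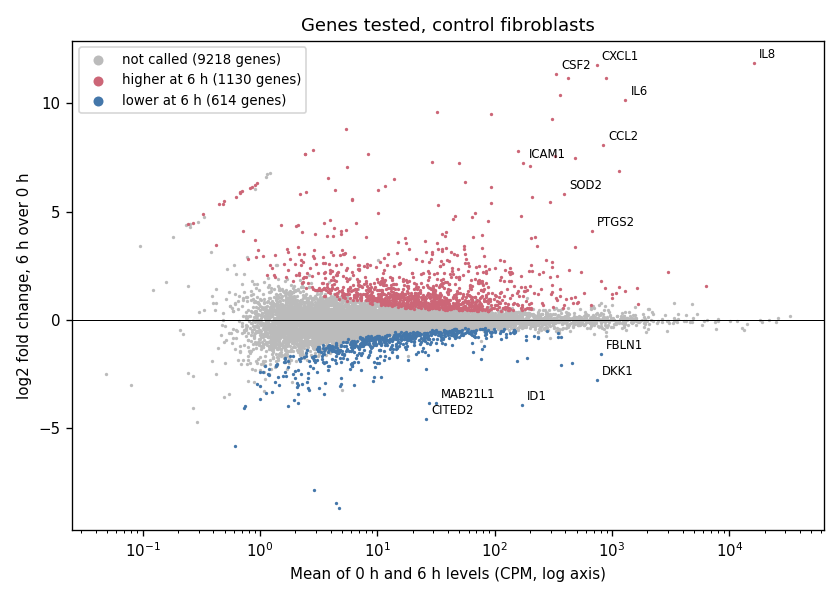
Each point is 1 of the 10962 genes tested. The x axis gives the mean of its 0 h and 6 h levels in CPM (log axis) and the y axis its log2 fold change, with 1130 genes higher at 6 h in red and 614 lower in blue.

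Chemokine genes were among the largest rises. IL8, a neutrophil attractant (chr4:73740519-73743716, plus strand in GRCh38), stood at 14.3, 3.22 and 8.10 CPM in the 0 h libraries and at 20630, 40650 and 35670 CPM in the 6 h libraries. The log2 fold change was 11.86 ± 0.75 (SE; adjusted p = 2.48e-14). This one gene took between 0.000345% and 0.00157% of counts at 0 h, and between 2.75% and 3.61% at 6 h. CXCL1, which draws neutrophils through the receptor CXCR2, went from 0.540, 0.483 and 0 CPM to 892, 1847 and 1691 CPM, a log2 fold change of 11.76 ± 0.47 (adjusted p = 2.29e-19). Every 6 h library exceeded every 0 h library for both genes, which the rule for naming the largest rises required. For both, replicate 1 was the lowest of the 6 h libraries. CXCL3 rose from 0.540, 0.322 and 0.810 CPM to 397, 874 and 906 CPM (log2 fold change 10.37 ± 0.41) and CXCL2 from 0.135, 0.483 and 0 to 116, 196 and 245 CPM (9.51 ± 0.50). CXCL1, CXCL2 and CXCL3 are close relatives whose reads may be shared between them. At 0 h they had 7, 4 and 9 counts over the 3 libraries, so their folds are imprecise. CCL2, a monocyte attractant, was at 4.86, 7.89 and 5.94 CPM and then at 879, 2432 and 1727 CPM (8.07 ± 0.38). CCL20, which calls cells bearing CCR6, had no count at 0 h and 10.6, 13.9 and 7.85 CPM at 6 h, at least 19.1-fold higher against a floor of 3 counts per library. Of 12 listed CXC chemokines 8 were tested and 6 rose, and of 11 listed CC and CX3C chemokines 5 were tested and 5 rose. Median log2 fold changes were 7.91 and 7.66 against -0.0316 over all genes. These lists held 2 and 3 tested genes without counts at 0 h, which could pass the filter only through other libraries and could only rise. CXCL1, CXCL2 and CXCL3, with at most 4, 3 and 4 counts in a 0 h library, could also pass it only through other libraries. The counts of rises are therefore partly set by the filter. With the genes that had no count at 0 h set to their bounds, the medians were 5.62 and 4.25. Without the 6 h replicate 1 library 4 CC and CX3C chemokines were called. CXCL6 and CXCL5, further ligands of CXCR2, had no count at 0 h and 2.73, 1.19 and 1.72 and 1.15, 0.796 and 0.982 CPM at 6 h, at least 3.32-fold and 1.72-fold higher. CCL7, a monocyte attractant, went from no count to 8.91, 3.78 and 1.72 CPM, at least 8.49-fold higher, and CCL5, a T cell attractant, from 3 counts to 4.31, 3.98 and 3.44 CPM, a ratio of 23 (95% counting interval 7.53 to 114). CXCL12, the ligand of CXCR4, fell from 299 ± 47.1 to 170.3 ± 59.5 CPM (SD, n = 3; log2 fold change -0.81), and was not called without the 6 h replicate 1 library. CCL3, whose reads may be shared with near-identical copies, had no count at 0 h and 2.01, 0.199 and 0.491 CPM at 6 h, and lost its call without that library.

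Promoters of IL6 and of chemokine genes among the largest rises are shown that held the letters of an NF-κB motif just before their start sites. IL11 is shown as the reporter gene. INHBA also held the letters in that stretch and was not picked for display. From RefSeq's promoter table (GRCh38.p14), 250 bases before and 50 after each start site were searched on both strands for GGNNTTTCC, whose reverse complement is GGAAANNCC. Gene spans printed elsewhere are from GENCODE and can begin upstream of these start sites, as for IL6. The 150 bases before the start site follow, 5′ to 3′ on the gene's strand, with that motif and the AP-1 motif TGANTCA in capitals.
IL8 (chr4:73740419-73740568, plus strand): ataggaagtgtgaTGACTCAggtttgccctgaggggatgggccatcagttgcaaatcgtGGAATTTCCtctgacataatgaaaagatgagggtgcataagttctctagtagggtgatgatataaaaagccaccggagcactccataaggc
CXCL1 (chr4:73869243-73869392, plus strand): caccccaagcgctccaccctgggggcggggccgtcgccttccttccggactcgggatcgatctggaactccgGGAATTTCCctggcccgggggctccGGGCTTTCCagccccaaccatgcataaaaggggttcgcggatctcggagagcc
CXCL2 (chr4:74099196-74099345, minus strand): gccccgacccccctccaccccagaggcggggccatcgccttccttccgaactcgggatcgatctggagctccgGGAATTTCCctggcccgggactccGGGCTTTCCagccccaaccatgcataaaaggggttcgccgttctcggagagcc
CXCL3 (chr4:74038690-74038839, minus strand): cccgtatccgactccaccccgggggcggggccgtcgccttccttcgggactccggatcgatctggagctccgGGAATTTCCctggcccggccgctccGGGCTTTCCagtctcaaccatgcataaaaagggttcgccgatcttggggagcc
IL6 (chr7:22727050-22727199, plus strand): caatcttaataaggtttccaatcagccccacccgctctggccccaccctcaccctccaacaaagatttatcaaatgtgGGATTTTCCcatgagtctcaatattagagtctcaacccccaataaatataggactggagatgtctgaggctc
CCL20 (chr2:227813692-227813841, plus strand): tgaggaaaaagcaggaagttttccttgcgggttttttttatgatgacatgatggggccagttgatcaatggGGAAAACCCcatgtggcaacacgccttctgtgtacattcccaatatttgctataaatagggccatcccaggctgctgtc
IL11 (chr19:55370464-55370613, minus strand): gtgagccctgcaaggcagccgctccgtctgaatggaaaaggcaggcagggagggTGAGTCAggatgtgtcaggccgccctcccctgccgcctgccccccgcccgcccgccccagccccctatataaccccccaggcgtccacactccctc
IL8 held both motifs, CXCL1, CXCL2 and CXCL3 each held the NF-κB letters in 2 places, and IL11 held the AP-1 letters but not the NF-κB letters in the stretch shown. IL11 also held the GLIS letters described next, in lower case, starting 25 bases before the start site. Of the 15 genes with the largest rises, 10 were in the table and 7 of these (CCL20, CXCL1, CXCL2, CXCL3, IL6, IL8 and INHBA) held the NF-κB letters, as did 0 of 9 promoters among the 10 largest falls. Among all genes down at least 4-fold, 5 of 55 promoters (9.09%) held them. Over the response, the letters stood in 29.8% of the 57 promoters of genes up at least 16-fold, in 10.9% of 933 promoters of genes called higher, in 6.34% of 489 of genes called lower and in 6.83% of the 8962 promoters of genes tested. The table as a whole held them in 6.26% of 35116 promoters. The AP-1 letters stood in 12.3%, 5.79%, 3.68% and 4.42% of the same 4 sets. The cAMP response letters TGACGTCA stood in 4.61% of higher, 3.27% of lower and 3.48% of tested genes, the TEAD letters GGAATG in 10.2%, 13.3% and 10.7%, and the GLIS letters TGGGGGGT in 1.39%, 1.43% and 1%. In the set up at least 16-fold, the cAMP response, TEAD and GLIS letters stood in 0%, 8.77% and 5.26% of 57 promoters, the last of these being 3 promoters. Over the whole table the AP-1, cAMP response, TEAD and GLIS letters stood in 7.71%, 1.85%, 14% and 1.47% of promoters. Both strands were searched for each, and none of these motifs holds another. These matches are letters in a window and show no binding.

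**Figure D2:**
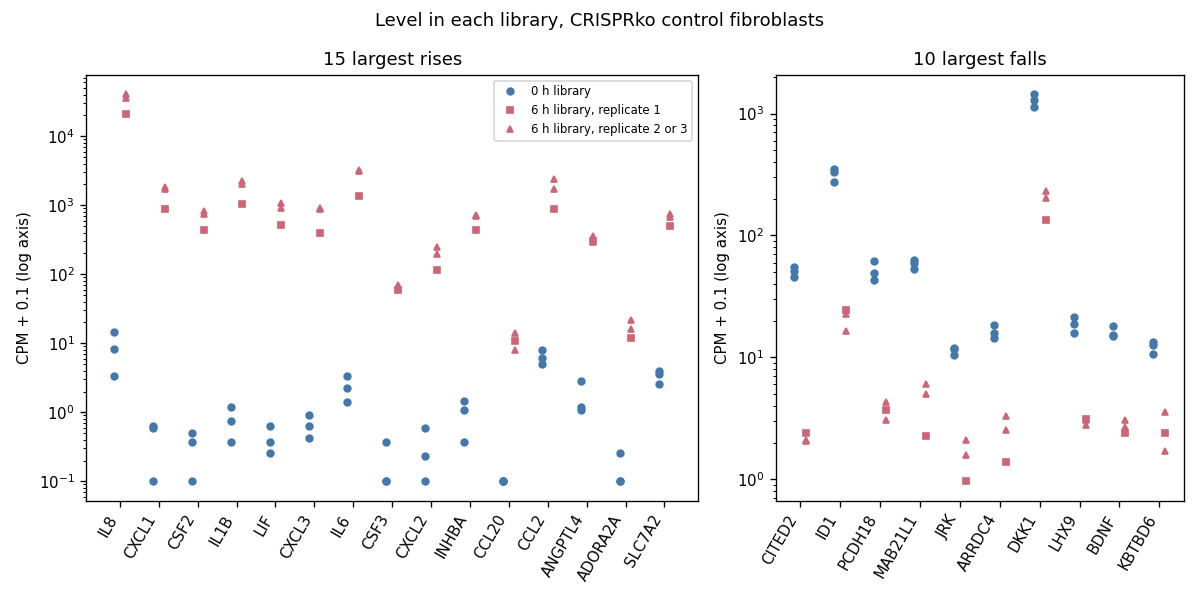
Level in CPM plus 0.1 (log axis) of the 15 largest rises and the 10 largest falls in each of the 6 libraries, with the 6 h replicate 1 library as squares. The genes were chosen among those whose 0 h and 6 h libraries did not overlap. Replicate 1 was the lowest 6 h library for 13 of the 15 rises.

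NF-κB subunits and their feedback inhibitors rose as a group, with 17 of 17 tested members higher, a median log2 fold change of 3.07 and the same 17 called without the 6 h replicate 1 library. NFKBIA, the inhibitor that holds NF-κB in the cytoplasm, went from 44.8, 32.8 and 42.1 CPM to 299.6, 437 and 523 CPM (log2 fold change 3.39 ± 0.19). TNFAIP3, a ubiquitin-editing enzyme that shuts the pathway down, went from 6.35, 9.01 and 8.91 CPM to 265, 501 and 457 CPM (5.67 ± 0.23). ZC3H12A, an RNase that cuts cytokine mRNAs, rose from 1.75, 0.805 and 1.35 to 94.6, 102 and 135 CPM. The largest rise of the group was TRAF1, an adaptor of TNF receptors, at 7.11 ± 0.25. Among the subunits, NFKB1, REL, NFKB2 and RELB rose by 3.25, 3.07, 3.14 and 2.85 on the log2 scale, and RELA by 1.10. NFKBIZ, a nuclear cofactor of NF-κB, and BIRC3, a ubiquitin ligase of the TNF pathway, rose by 4.54 ± 0.22 and 4.08 ± 0.21. Upstream, 7 of 15 tested members of IL-1 receptor signalling were higher and 1 lower, with a median of 0.36. IRAK2, a kinase of the receptor complex, rose from 1.62, 3.22 and 5.67 to 69, 106 and 92.3 CPM (4.80 ± 0.30), and MAP3K8, the kinase TPL2, by 3.88. IRAK4, the first kinase of the complex, fell from 6.35, 6.12 and 6.48 to 0.575, 2.79 and 0.982 CPM (-2.15 ± 0.49). The receptor IL1R1 did not pass the test, at 0.17 (5.27 and 5.71 CPM), whereas its partner IL1RAP rose by 1.11. MYD88 was at 0.31 and did not pass. The ubiquitin ligases PELI1 and TRAF6 and the adaptors TAB3 and TAB2 rose by 2.18, 1.15, 2.94 and 1.03.

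Cytokines, colony-stimulating factors and the IL-6 family rose with the chemokines. CSF2 (GM-CSF), which drives myeloid cells, stood at 0.405, 0 and 0.270 CPM at 0 h and at 436, 749 and 825 CPM at 6 h (log2 fold change 11.36 ± 0.45, adjusted p = 1.98e-19). It had 4 counts over the 3 libraries at 0 h, and its log2 fold change was 12.37 without 0 h replicate 1. Folds from so few counts, as also for IL1A (5) and LIF (6), are imprecise. IL1B, whose protein was among the cytokines supplied, went from 1.08, 0.644 and 0.270 CPM to 1043, 2049 and 2215 CPM (11.17 ± 0.49), and IL1A from 0, 0.644 and 0.270 to 18.3, 23.5 and 18.2 CPM (5.99 ± 0.49). CSF3 (G-CSF) had 1 count at 0 h over the 3 libraries and 59.5, 63.5 and 70.2 CPM at 6 h, a ratio of 1099 (95% counting interval 197 to 43460). Of 16 listed cytokines 10 were tested and 8 were higher, with a median of 3.61, and IL7 (0.99) and TNFRSF11B (0.09) did not pass. Of 13 listed IL-6 family ligands and receptors 8 were tested and 7 rose (median 2.38). CSF2, CSF3 and LIF, with at most 3, 1 and 4 counts in a 0 h library, could pass the filter only through other libraries. The counts of rises in both lists are therefore partly set by the filter. LIF, which acts through gp130, rose from 0.540, 0.161 and 0.270 CPM to 525, 1072 and 912 CPM (11.14 ± 0.45), and IL6 (chr7:22725884-22732002, plus strand) from 3.24, 1.29 and 2.16 CPM to 1372, 3286 and 3157 CPM (10.14 ± 0.44). The shared receptor IL6ST (gp130) and the receptor OSMR rose by 0.65 and 1.20, while IL11RA, at 0.01, did not pass. SOCS3, the inhibitor induced by gp130 signalling, rose by 2.17, and CLCF1, another ligand of the family, by 2.60. CSF1, the macrophage growth factor, rose from 4.72 ± 0.750 to 123 ± 18 CPM (SD, n = 3; 4.73 ± 0.21). IL32, TNFSF15 and IL15 rose by 2.50, 2.29 and 1.44. On the TPM scale IL8 averaged 30960 at 6 h, above CCL2 at 4470, IL6 at 3778, CXCL1 at 2208 and IL1B at 1954.

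IL11, the gene that carries the reporter (chr19:55364382-55370463, minus strand), belongs to the same family. Its libraries stood at 2.43, 1.45 and 3.24 CPM at 0 h and 11.9, 17.9 and 12 CPM at 6 h, without overlap (log2 fold change 2.59 ± 0.40, adjusted p = 9.32e-06). On the TPM scale it averaged 1.83 and 9.55. GLIS3, the transcription factor targeted elsewhere in the arm (chr9:3824127-4348392, minus strand), went from 2.02, 1.45 and 2.16 CPM to 6.47, 4.78 and 4.42 CPM (log2 fold change 1.49 ± 0.42, adjusted p = 0.013). It lost its call without the 6 h replicate 1 library (log2 fold change 1.32, adjusted p = 0.0663), and also without the 0 h replicate 2 library (log2 fold change 1.32, adjusted p = 0.0799) and with no filter on low counts (1.48, adjusted p = 0.0568). GLIS3 was the 1 member called of 5 tested GLIS and GLI factors and Hedgehog components (median 0.117), and GLIS2 was at 0.90. That count is given as description, since 10.3% of all genes were higher and 5.6% lower. In the GLIS3 CRISPRko cells GLIS3 averaged 0.298 CPM at 0 h and 1.49 CPM at 6 h. A list of genes tied to inflammation-associated fibroblasts (IAF) was taken from the study. The sources used here do not settle whether these libraries entered its choice, so it is not treated as independent evidence of a direction. Of its 29 tested members, 13 were higher and 1 lower, with a median of 0.591. LIF, INHBA, PTGS2, TFPI2 and CD82 rose most, the last of these, a tetraspanin, from 8.37, 9.18 and 11.9 to 97.2, 60.1 and 82 CPM (3.06 ± 0.19). Of 22 tested IAF markers of the spatial panel, 8 were higher and 2 lower (median 0.0304), among them FBLN1, a basement-membrane glycoprotein, down from 1271, 1170 and 1181 CPM to 635, 269.9 and 325 CPM (-1.56 ± 0.33).

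**Figure D3:**
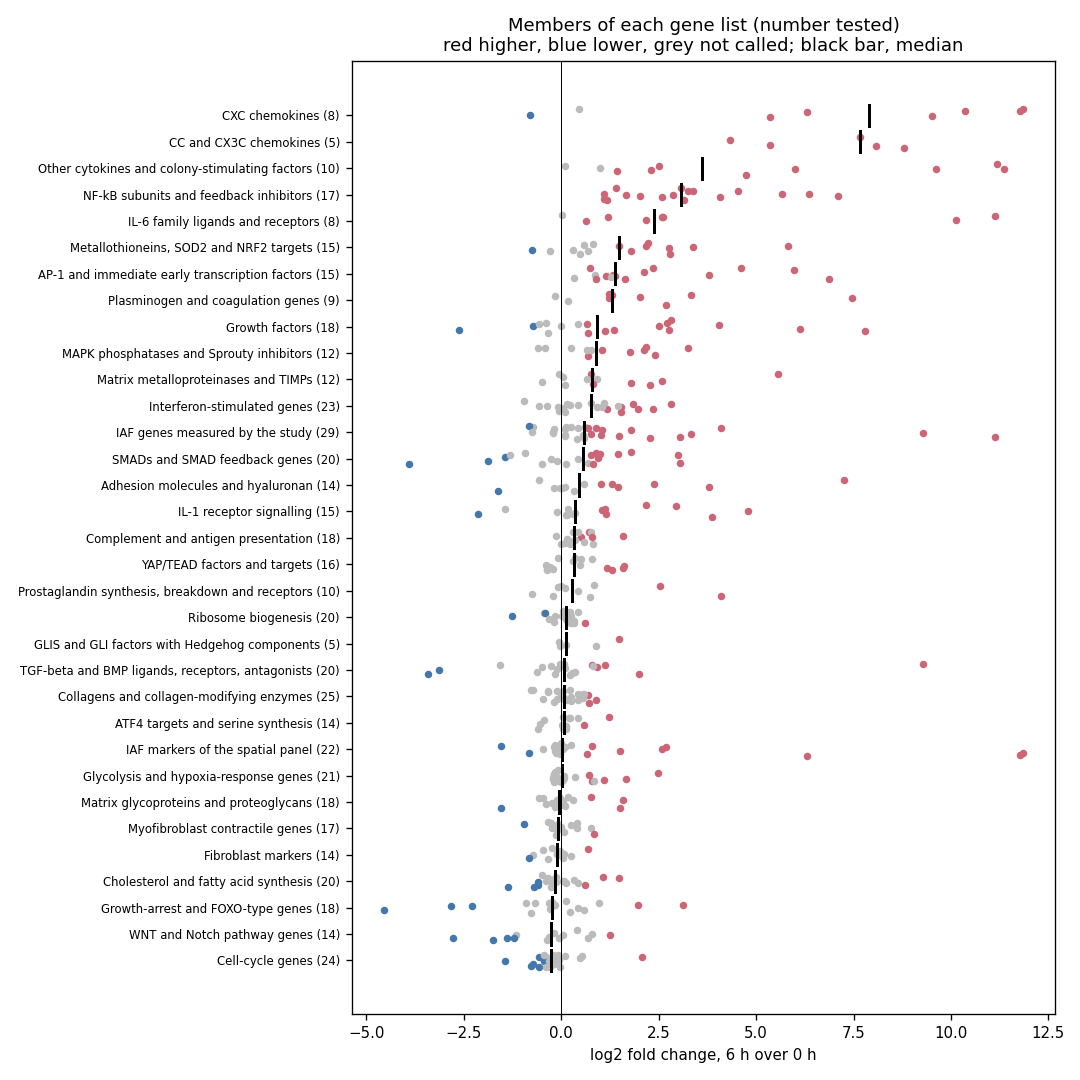
Log2 fold change (x axis) of each tested member of the lists with at least 5 tested members (y axis, number tested in brackets), with a black bar at the list's median. Chemokine lists lie furthest right, at medians of 7.91 and 7.66, and cell-cycle genes furthest left at -0.258.

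A list of SMADs and SMAD feedback genes, which also held the ID genes, had calls both ways. Of 20 tested, 9 rose and 3 fell (median 0.57). SMAD7, which blocks the TGFβ receptor, went from 4.73, 1.29 and 1.35 to 26.9, 18.3 and 21.1 CPM (log2 fold change 3.05 ± 0.41), and the feedback inhibitors PMEPA1, SMURF1 and SKIL rose by 3.00, 1.79 and 1.46. SMURF2, a ubiquitin ligase, the corepressor TGIF1 and the repressor SNAI2 rose by 0.99, 0.93 and 0.81, and the signal transducers SMAD5 and SMAD3 by 0.89 and 0.77. The members that fell were the ID genes, helix-loop-helix inhibitors that are targets of BMP signalling. ID1 fell from 332, 275 and 354 CPM to 24.4, 16.3 and 22.6 CPM (-3.92 ± 0.21, adjusted p = 6.79e-16), ID3 by 1.89 and ID2 by 1.46 on the log2 scale. Of 20 tested TGFβ and BMP ligands, receptors and antagonists, 5 rose and 2 fell, with a median of 0.0786. These counts are given as description, since 10.3% of all genes were higher and 5.6% lower. INHBA, the subunit of activin A, rose from 1.35, 0.966 and 0.270 CPM to 442, 689 and 728 CPM (9.29 ± 0.35). The receptor BMPR2, the latent TGFβ binding protein LTBP2 and the activin antagonist FSTL3 rose by 1.12, 0.93 and 0.78. TGFB2 rose by 1.99, while TGFB1 (-0.02) and the receptors TGFBR1 (0.82) and TGFBR2 (-0.12) did not pass. BMP4, a ligand that switches on ID genes, fell from 8.37, 5.47 and 5.67 to 1.29, 0.199 and 0 CPM (-3.43 ± 0.63).

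Of 24 listed immediate early and AP-1 factors, 15 were tested and 12 of these were higher at 6 h (median 1.38). ATF3 and EGR2, with at most 5 and 2 counts in a 0 h library, could pass the filter only through other libraries. The count of rises is therefore partly set by the filter. IER3, an anti-apoptotic early gene, went from 25.1, 18.7 and 13.8 CPM to 1181, 3107 and 2571 CPM (log2 fold change 6.87 ± 0.38). MAFF, ATF3, JUNB and FOSL1 rose by 3.80, 4.62, 2.35 and 1.33. The zinc finger factors KLF6 and KLF10, MYC, MAFK, IER2 and JUN rose by 2.12, 0.89, 1.38, 1.63, 1.16 and 0.73. EGR1 was at 0.87, NR4A1 at 1.26 and FOSL2 at 0.33, and these did not pass. EGR2 had 2 counts at 0 h and stood at 12.8, 7.36 and 5.64 CPM at 6 h, a ratio of 80.4 (95% counting interval 21.9 to 669.8). Of 12 tested MAPK phosphatases and Sprouty inhibitors, the brakes of ERK signalling, 7 rose (median 0.899), led by SPRY2 at 3.26 ± 0.36 and including DUSP6, a phosphatase of ERK, at 2.12 ± 0.22. SPRY4, SPRED2, DUSP1 and DUSP14 rose by 2.18, 1.76, 1.04 and 0.68, and DUSP5, at 2.41, lost its call without the 0 h replicate 1 library. DUSP4, at 0.24, did not pass.

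Growth factors rose more often than they fell, with 11 of 18 tested higher and 2 lower (median 0.911). ANGPTL4, which blocks lipoprotein lipase, went from 1.08, 0.966 and 2.70 CPM to 306, 290.2 and 353 CPM (log2 fold change 7.79 ± 0.27), and HBEGF, an EGF receptor ligand, from 1.89, 2.58 and 3.78 to 161, 214 and 173 CPM (6.13 ± 0.25). BDNF, a neurotrophin, fell from 18.1, 15 and 15.1 to 2.30, 2.59 and 2.94 CPM (-2.63 ± 0.32). STC1, a secreted glycoprotein, FGF2 and VEGFC rose by 2.81, 2.70 and 1.36, and NRG1, PDGFC and FGF7 by 1.12, 0.70 and 0.67. ANGPT1, a ligand of the receptor TIE2, fell from 87.9, 89 and 74.3 to 43.8, 46.8 and 61.9 CPM (-0.73 ± 0.16). VEGFA, the vascular growth factor, rose from 0.270, 0 and 0.540 to 3.31, 6.77 and 2.70 CPM (4.04 ± 0.89).

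Several matrix proteases and most plasminogen genes tested rose, and COL1A1, COL1A2 and COL3A1 did not pass the test. Of 12 tested matrix metalloproteinases and TIMPs, 6 rose (median 0.791), among them TIMP3, an inhibitor of these proteases (0.81 ± 0.24), which lost its call without the 0 h replicate 2, the 0 h replicate 3 or the 6 h replicate 2 library. MMP1, an interstitial collagenase, went from 317, 383 and 374 CPM to 697, 1456 and 1585 CPM (log2 fold change 1.8 ± 0.32), MMP3 from 128, 153 and 157 to 335, 862 and 941 CPM (2.29 ± 0.31), and MMP12 from 0.135, 0.483 and 0 to 8.19, 19.3 and 8.35 CPM (5.55 ± 0.64). MMP10, a stromelysin, rose from 0.810, 0.644 and 0 to 3.59, 2.59 and 4.42 CPM (2.59 ± 0.55). MMP14, a membrane-bound protease, rose by 0.77. MMP2 was at 0.10 and TIMP1 at 0.67, and neither passed. Of 9 tested plasminogen and coagulation genes, 7 rose (median 1.30), among them SERPINB2, an inhibitor of plasminogen activators, from 6.21, 6.44 and 2.97 to 437, 1236 and 1224 CPM (7.47 ± 0.41), and PLAUR, the urokinase receptor, by 2.03 ± 0.19. PLAU, urokinase, went from 4.73, 9.82 and 7.83 to 43.8, 42.4 and 56.5 CPM (2.69 ± 0.26), and TFPI2, a serine protease inhibitor, from 10.8, 16.3 and 15.4 to 109.7, 182 and 133 CPM (3.33 ± 0.21). F3 (tissue factor), PLAT and SERPINE2 rose by 1.30, 1.21 and 1.21. Collagens and their modifying enzymes had 3 of 25 tested higher (median 0.0767). Over all genes 10.3% were higher and 5.6% lower. The counts for collagens, and those for matrix glycoproteins, contractile genes and YAP and TEAD targets below, are therefore given as description. COL1A1 was at 0.25, COL1A2 at -0.35 and COL3A1 at -0.73, and COL7A1 rose by 0.90 ± 0.19. Matrix glycoproteins had 3 higher and 1 lower of 18 (median -0.0634), among them TNC, a glycoprotein of healing tissue, from 546, 607 and 620.2 CPM to 1148, 1951 and 1953 CPM (1.51 ± 0.30), and CTGF by 1.58 ± 0.34. FN1, at 30690 and 34580 CPM (0.17), did not pass. Of 17 tested contractile genes of the myofibroblast, 1 rose and 1 fell (median -0.083). MYOCD, a cofactor of smooth muscle genes, at 0.83 ± 0.22, lost its call without the 0 h replicate 1 or replicate 3 library, and LMOD1, a leiomodin, was at -0.97 ± 0.23. ACTA2, smooth muscle actin, was at 1097 ± 176 CPM at 0 h and 864 ± 114 CPM at 6 h (SD, n = 3; log2 fold change -0.34 ± 0.35, adjusted p = 0.59), and TAGLN at -0.01 did not pass either. YAP and TEAD targets had 4 of 16 higher (median 0.328), with NUAK2 and AMOTL1 up by 1.61 and 1.18 and CYR61, at 0.29, not called. Adhesion and hyaluronan genes had 6 of 14 higher and 1 lower (median 0.456). ICAM1, the leukocyte adhesion receptor, went from 2.70, 2.74 and 0.810 to 322, 342 and 386 CPM (7.25 ± 0.30), and HAS2, a hyaluronan synthase, from 29, 28.2 and 32.4 to 265, 601 and 382 CPM (3.80 ± 0.28). TNFAIP6, a hyaluronan-binding protein, rose by 2.38 ± 0.16, the hyaluronan receptor CD44 by 1.46 ± 0.24 and the integrins ITGA2 and ITGA5 by 1.31 and 1.01. KIAA1199, which breaks hyaluronan down, fell by 1.63 on the log2 scale.

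Among genes of the inflammatory milieu, PTGS2 (COX-2), which makes prostaglandin precursors, was higher, at 76.8, 80.3 and 67.5 CPM and then 695, 1727 and 1418 CPM (log2 fold change 4.09 ± 0.25). Of the 10 tested prostaglandin genes 2 were called, PTGS2 and the transporter SLCO2A1 (median 0.264). SLCO2A1 lost its call without the 0 h replicate 2 library, and PTGES (-0.74) and PTGS1 (-0.21) did not pass. Over all genes 10.3% were higher and 5.6% lower. The counts for prostaglandin genes, and for complement and antigen presentation below, are therefore given as description. SOD2, the mitochondrial superoxide dismutase, went from 13, 14.2 and 13.2 CPM to 481, 931 and 890.2 CPM (5.83 ± 0.29), and the metal-binding MT2A from 1118, 1133 and 939.5 CPM to 2470, 6459 and 5965 CPM (2.22 ± 0.36). These belonged to a list with 8 of 15 higher and 1 lower (median 1.49), in which metallothionein genes may share reads. HMOX1, which breaks down heme, rose by 1.79 ± 0.28, and SLC7A11, the cystine transporter, fell from 47.5, 56.8 and 64 to 31.9, 31.8 and 36.3 CPM (-0.75 ± 0.20). The zinc importer SLC39A14 rose by 3.38 ± 0.26, and the NRF2 targets NQO1 (-0.29) and GCLM (0.49) did not pass. Interferon-stimulated genes were up for 7 of 23 (median 0.759), among them IRF1 from 6.75, 8.85 and 5.13 to 39, 58.1 and 52.8 CPM (2.81 ± 0.26), whereas ISG15 (0.23) and IFIT1 (-0.96) did not pass. IFIH1 and DDX58, sensors of viral RNA, rose by 2.34 and 1.84. Without the 6 h replicate 1 library 5 were called. Complement and antigen presentation had 4 of 18 higher (median 0.338), including the peptide transporter TAP1 at 1.57 ± 0.20, with C3 (0.83) and HLA-B (0.34) not called.

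The lists of growth and metabolism had calls in both directions, and several lay near the shares over all genes, 10.3% higher and 5.6% lower, so that their counts are given as description. Of 24 tested cell-cycle genes, 1 rose and 6 fell (median -0.258). CDC20, an activator of the anaphase-promoting complex, went from 440.0 ± 103 to 256 ± 47.3 CPM (SD, n = 3; log2 fold change -0.78 ± 0.20) and lost its call without the 0 h replicate 3 library. CCNA2, cyclin A2, at -0.72 ± 0.18, lost its call without the 6 h replicate 1 library, after which 3 members fell and 2 rose. The inhibitor CDKN2B rose by 2.08, and the inhibitor CDKN1B fell by 1.43 on the log2 scale, from 8.91, 9.98 and 7.29 to 2.44, 3.78 and 3.68 CPM. MKI67 (-0.09) and CDKN1A (0.52) did not pass. The growth-arrest list had 2 of 18 higher and 3 lower (median -0.237). CITED2, a co-regulator of CBP/p300, was the largest fall with a mean of at least 10 CPM, from 50.8, 54.6 and 45.4 to 2.30, 1.99 and 1.96 CPM (-4.56 ± 0.28, adjusted p = 1.80e-14). TXNIP, an inhibitor of glucose uptake, fell from 46.3, 53.6 and 30.5 to 7.91, 11.1 and 8.10 CPM (-2.28 ± 0.25), and its relative ARRDC4 from 15.7, 18.4 and 14.3 to 1.29, 3.18 and 2.45 CPM (-2.84 ± 0.35). The transcription factors FOXO3 and FOXO1 rose by 3.12 ± 0.20 and 1.98 ± 0.41. WNT and Notch genes had 1 of 14 higher and 4 lower (median -0.251). DKK1, a secreted WNT antagonist (chr10:52314281-52318042, plus strand), fell from 1298, 1130 and 1443 CPM to 133, 229.5 and 203 CPM (-2.78 ± 0.25). The WNT receptors and co-receptor FZD2, FZD7 and LRP5 were at -1.74, -1.39 and -1.22, FZD2 losing its call without the 0 h replicate 3 or the 6 h replicate 2 library, and NOTCH2 rose by 1.26. Cholesterol and fatty acid synthesis had 3 of 20 higher and 4 lower (median -0.157), with SQLE up by 1.48 ± 0.16 and MVK at -1.37 ± 0.32. INSIG1, which holds SREBP back, rose by 1.06, and the desaturase SCD was at -0.69. Glycolysis and hypoxia genes had 5 of 21 higher (median 0.0165), with the regulators of glycolysis PFKFB4 and PFKFB3 up by 2.48 ± 0.22 and 1.67 ± 0.28, the glucose transporter SLC2A1 by 1.10, and GAPDH (-0.20) and LDHA (-0.11) not passing. ATF4 targets had 2 of 14 higher (median 0.0739), ATF4 itself by 1.22 ± 0.19, and ribosome biogenesis had 1 higher and 2 lower of 20 (median 0.127).

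Fibroblast markers had 1 member higher and 1 lower of 14 (median -0.105), near the shares over all genes, 10.3% higher and 5.6% lower. PDGFRA, the receptor for PDGF-A, fell from 39.7, 62.3 and 55.1 to 30.8, 34.6 and 21.6 CPM (-0.84 ± 0.21), a call lost without the 0 h replicate 2 or the 6 h replicate 3 library. PRRX1, a mesenchymal homeobox factor, was at 0.67 ± 0.23 and was called in the fit over the arm but not with DESeq2. The largest falls also held genes outside these lists, some of them developmental regulators. MAB21L1 fell from 63, 59.9 and 53.5 to 2.16, 5.97 and 4.91 CPM (-3.82 ± 0.25), LHX9, a LIM homeobox factor, from 15.7, 21.2 and 18.6 to 3.02, 2.98 and 2.70 CPM (-2.65 ± 0.30), and PCDH18, a protocadherin, from 42.8, 61.2 and 49.4 to 3.59, 2.98 and 4.17 CPM (-3.83 ± 0.29). KBTBD6, a ubiquitin-ligase adaptor, fell from 10.5, 13.2 and 12.4 to 2.30, 1.59 and 3.44 CPM (-2.32 ± 0.30), and JRK from 11.6, 10.5 and 11.9 to 0.863, 1.99 and 1.47 CPM (-3.00 ± 0.38). The largest rises held 2 such genes. ADORA2A, an adenosine receptor, had 1 count at 0 h and 11.9, 16.1 and 21.6 CPM at 6 h, a ratio of 272 (95% counting interval 48.4 to 10780). SLC7A2, an arginine transporter, went from 3.51, 3.86 and 2.43 to 499.8, 754 and 683 CPM (7.57 ± 0.29).

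Levels at 12 and 24 h in the same cells, given as means ± SD of 3 libraries and with no test, set the 6 h values in the course of the stimulation. LIF had 836 ± 281 CPM at 6 h, 31.6 ± 7.93 at 12 h and 6.12 ± 1.26 at 24 h, and CCL2 had 1679 ± 778, 245 ± 13.5 and 245 ± 33.7 CPM. IL8 was at 32320 ± 10420, 26410 ± 1878 and 11970 ± 599 CPM, and IL6 at 2605 ± 1070, 1188 ± 196 and 289.6 ± 7.77 CPM. MMP1, by contrast, had 1246 ± 479.9 CPM at 6 h and 4423 ± 1272 and 2608 ± 186 CPM later, and MYOCD 28 ± 1.28, 138 ± 37.3 and 128 ± 21.1 CPM. SOD2 was at 768, 1094 and 966 CPM. ID1 was at 21.1, 53.7 and 211 CPM, against 320.2 CPM at 0 h, and PCDH18 at 3.58, 4.89 and 5.59 CPM, against 51.1 CPM. Mean LIF and CCL2 were highest at 6 h, and mean MMP1, MMP3 and SERPINB2 at 12 h.

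**Figure D4:**
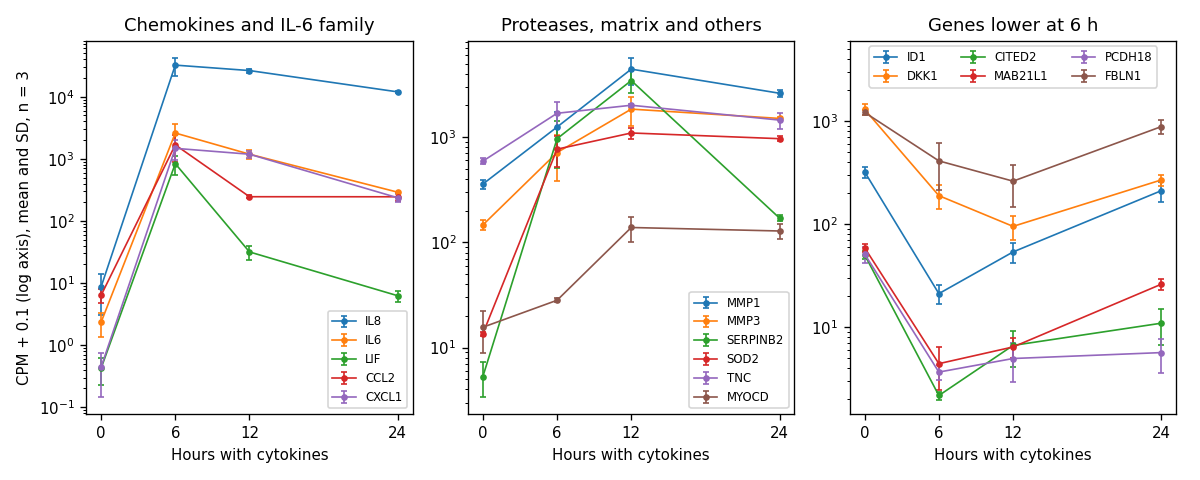
Mean CPM plus 0.1 (log axis) with SD bars, n = 3 libraries, against hours with cytokines in control cells. LIF and CCL2 stand highest at 6 h, MMP1 and SERPINB2 at 12 h, and ID1 returned to 211 CPM by 24 h from 21.1 CPM at 6 h.

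The same 6 h step was read in the GLIS3 CRISPRko cells, with other libraries of the same fit, and in the VP64_Ctrl cells of the CRISPR activation (CRISPRa) arm, which carry dCas9-VP64 and share no library with it. In GLIS3 CRISPRko cells 1443 genes were higher (13.2%) and 1182 lower (10.8%). Without 1 library of those cells the count of falls was 990, 847 or 751 (0 h replicates 1, 2 and 3). It was 702, 579 or 784 without 6 h replicates 1, 2 and 3. In TPM with limma, where the median of all genes was -0.459, the GLIS3 CRISPRko response had 485 higher and 2573 lower. Of the 1130 control rises, 885 (78.3%) were also higher there, which is 61.3% of its rises, and of 614 falls 364 (59.3%) were also lower, which is 30.8% of its falls. The difference between the responses was called for 1 gene of 10962 (0.00912%), with 869 genes at an unadjusted p under 0.05. With DESeq2, 42 genes differed, and with no filter 63. The difference in IL11 was -1.01 ± 0.62 (adjusted p = 0.715).

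In VP64_Ctrl cells 1777 genes were higher (16.2%) and 1388 lower (12.6%) of 10980. The titles and descriptions of that arm name opposite groups as control. Descriptions were followed here, so by their titles these would be the cells with activated GLIS3, and GLIS3 averaged 2.22 CPM at 0 h and 4.60 CPM at 6 h in them. Without the VP64_Ctrl 6 h replicate 2 library 906 fell, and in TPM with limma, where the median of all genes was -0.684, 436 were higher and 5256 lower. Of 1119 control rises tested in both, 843 (75.3%) were higher there too (47.9% of its 1761), and of 607 falls 342 (56.3%) were lower (25.1% of its 1363), with 5 in opposite directions. Across 10691 genes the log2 fold changes had a Pearson r of 0.735, over genes measured in the same libraries, which are not independent. Of 11422 genes, 49 differed between the responses (0.429%), and 1550 had an unadjusted p under 0.05. The signed log2 fold change was higher in control cells for 11 of the 49 and lower for 38. This gives the direction of the difference, not which cells changed more. CDKN1B, for one, is among the 38 and changed more in control cells. The count of 49 depended on which single library was left out. It moved little without control 0 h replicate 3 (14 higher and 29 lower in control cells). The same held without VP64_Ctrl 0 h replicate 1 (26 and 33) or 6 h replicate 1 (14 and 37). The count was 15, 14, 4, 107 and 16 without control 0 h replicates 1 and 2 and 6 h replicates 1, 2 and 3. It was 91, 8, 23 and 9 without VP64_Ctrl 0 h replicates 2 and 3 and 6 h replicates 2 and 3. It was 218 with DESeq2, 307 with no filter and 10 with limma on log2(TPM + 1), where the median of the difference was 0.577. HBEGF had 4.13 in VP64_Ctrl cells against 6.13 here, a difference of 2.01 ± 0.39 (adjusted p = 0.011). ADM, the vasodilator peptide adrenomedullin, had -0.18 in control cells (214 to 188 CPM) against 2.21 in VP64_Ctrl cells (175 to 807 CPM), a difference of -2.38 ± 0.34 (adjusted p = 7.65e-05). EREG, an EGF receptor ligand, rose in both, by 2.75 here and by 4.90 there. KDM6B, a histone demethylase, and SLC43A1, an amino acid transporter, differed by 3.30 and 2.99 at means below 10 CPM. CDKN1B fell by 1.43 here and had 0.14 there. The changes of IRAK4, FBLN1 and TAB3 were not called in GLIS3 CRISPRko cells (-1.03, -0.48 and 1.07). They were not called in VP64_Ctrl cells either (-0.35, -0.32 and 0.93). For these 3 genes the difference from control cells was not called in either comparison.

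**Figure D5:**
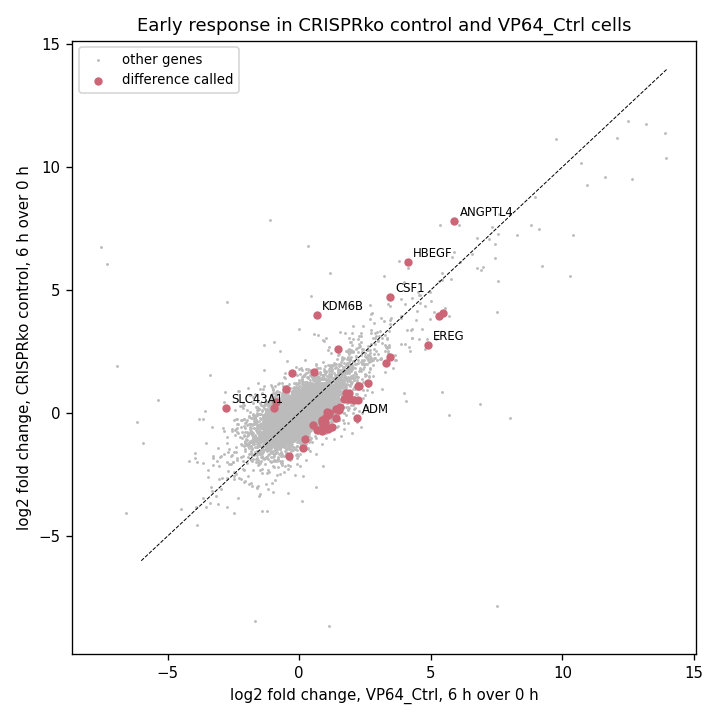
Log2 fold change at 6 h of each gene tested in both, in VP64_Ctrl cells (x axis) and CRISPRko control cells (y axis), with a dashed line of equal change. Red marks genes whose difference was called, such as ADM, at -0.18 in control cells and 2.21 in VP64_Ctrl cells.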

How the data were processed

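The 6 libraries (TRIzol RNA, Nextera XT, NextSeq 500) belong to 48 libraries of the series. Per the methods and the submitters' processing notes, reads passed through Trim Galore and SortMeRNA (against ribosomal RNA), STAR placed them on GRCh38, and Salmon gave the gene values. Tool versions and the strand setting are not given in the sources used here. The authors deposited estimated counts per gene, not normalized between libraries, of which 6.38% were not whole and were rounded here. The authors also deposited TPM, scaled for length and to one total per library, which was used for the limma alternatives and for levels between genes. Columns were matched to samples by their descriptions, times and replicates by the labels, with 0 columns unmatched among 29744 genes.

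The main test was edgeR's quasi-likelihood test (edgeR 4.0.16, R 4.3.3) with TMM scaling and filterByExpr (minimum count 10, minimum total 15), fitted over the 24 libraries and 8 groups of the CRISPRko arm, with Benjamini-Hochberg adjustment over all genes tested and calls at an adjusted p of 0.05. SEs were worked back from that test, as the absolute log2 fold change over the square root of its F statistic, so they are approximate. VP64_Ctrl was tested in the 24 libraries of its arm, and the difference from it over all 48. The common dispersion was 0.0354. The counting floor was 3 counts per library (0.566 CPM at 0 h), and counting intervals are at 95% and cover counting error only. Alternatives were DESeq2 1.42.0, its size factors, no filter, the libraries of the contrast alone, the replicate number as a block, limma 3.58.1 for genes with a mean TPM of at least 1 after adding a pseudocount of 1 or of 0.1 and taking log2, a log2 fold change of at least 1 and each library left out. Scripts were tested on simulated data.

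Named genes were the 15 largest rises and 10 largest falls among called genes with no overlap between times and at least 10 CPM at the higher time, up to 5 called members and up to 3 members that did not pass in each of 38 lists (626 genes, 6 found under older symbols), GLIS3, IL11 and up to 5 genes per difference between cells. Other list members named by value, and CDKN1B, IRAK4, FBLN1 and TAB3 in the comparison with other cells, were chosen after their values were seen. The members and lists were chosen with earlier results of these data known. Some genes counted in the totals are not reported here by name.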

Additional observations from a re-analysis of the deposited data

Results flagged for a closer look

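Tests were made of the difference of the 6 h response between kinds of cells. Against the GLIS3 CRISPRko cells 1 gene of 10962 was called (edgeR). Against the VP64_Ctrl cells 49 genes were called, and the 5 with the largest differences were KDM6B (3.304, adjusted p = 0.0214), SLC43A1 (2.989, adjusted p = 0.0345), ADM (-2.375, adjusted p = 7.65e-05), EREG (-2.135, adjusted p = 0.0214) and HBEGF (2.009, adjusted p = 0.011), each as control minus VP64_Ctrl on the log2 scale by edgeR. The arms differ in Cas9 or dCas9-VP64, guides and libraries together, so these cannot be told apart.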

How the results depend on the processing

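The 6 h response of the control cells kept its side of the threshold in most settings. DESeq2, its size factors, no filter, the libraries of the contrast alone and the replicate block gave 1087 to 1136 higher and 542 to 634 lower genes, and leaving out single libraries gave 923 to 1056 higher and 443 to 484 lower. Counts moved by more than 1.5 times with limma on log2(TPM + 1) (502 higher, 254 lower) and log2(TPM + 0.1) (486 and 227), where the medians of all genes were -0.115 and -0.135, and with a log2 fold change of at least 1 (685 and 304). Of the 1744 genes called, DESeq2 still called 1589, limma 723 and 682 and the fits without 1 library 1308 to 1393, and 0 changed sign in any of these. For the 27 largest rises, falls and study genes, 373 of 376 values kept their call and 3, all of GLIS3, lost it. For the 113 examples from the gene lists, 1439 of 1563 values kept their call and 124 lost it, with 0 reversed. For GLIS3 CRISPRko the counts were 485 and 2573 or 488 and 2525 with limma, 794 and 519 with a log2 fold change of at least 1, and 1174 to 1370 higher and 579 to 990 lower without 1 library. For the VP64_Ctrl cells they were 436 and 5256 or 426 and 5050 with limma, 899 and 640 with a log2 fold change of at least 1, and 1430 to 1693 and 906 to 1210 without 1 library. The difference from GLIS3 CRISPRko cells, 1 gene, was 42 with DESeq2, 63 with no filter, 0 with limma on log2(TPM + 1) (747 genes at an unadjusted p under 0.05) and 1 to 4 without 1 library. The difference from VP64_Ctrl cells, 49 genes, was 218 with DESeq2, 307 with no filter, 10 and 2 with limma and 4 to 107 without 1 library. The cause of these moves was not tested.

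The main fit did not pair samples by replicate number, and the labels do not say whether the numbers mark pairs. Deviations of same-numbered 0 h and 6 h libraries had r of 0.0217, 0.111 and 0.103. For differently numbered libraries r ran from -0.119 to 0.0277. With the replicate number as a block, 1129 genes were higher and 603 lower, and the difference from VP64_Ctrl cells was called for 91 genes. Libraries of 3377399 to 6750532 counts limit what can be said of low genes such as GLIS3 and VEGFA.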
